A study of Mus musculus with 3 samples.

Results

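The amino acid transporter genes described here are the rows of a mouse gene expression table whose symbols belong to the solute carrier families Slc1a, Slc3a, Slc6a, Slc7a, Slc36a, Slc38a and Slc43a. The symbol rule took 53 of 17285 genes. It took 1 gene that is no transporter, Slc7a6os, a neighbour of Slc7a6 on the opposite strand, and that gene is included in all counts and shares of the families below unless stated. The data come from 3 RNA sequencing samples of one stable B16 line with an integrated empty vector, labelled Mock replicates 1, 2 and 3. B16 is a melanoma line of the mouse. All samples belong to this one line and group, and the labels name no treatment. The extraction text speaks of organs as well as of the stable line, while the other labels name only the line. Separate cultures are not stated, and the spread among these samples may be technical. The p-values for levels and ratios rest on that spread and therefore speak only of these samples. Those for variation between libraries concern differences among these samples alone. The series title concerns the sialyltransferase ST8Sia5, for which the empty-vector line is the background.

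Amino acids cross membranes through transporters that differ in substrate and driving force. Some take up substrate with sodium or protons, and others exchange an external amino acid for an internal one. The Slc7 light chains of the exchanger group reach the cell surface when joined by a disulfide bond to a heavy chain, the product of Slc3a2 (4F2hc, also called CD98) or of Slc3a1 (rBAT). Rapidly dividing cells need large neutral amino acids, arginine and glutamine for protein synthesis and signalling through mTORC1, and cystine for glutathione. In melanocytes the supply of cysteine also bears on the kind of melanin that is made. The Slc6 family, which the rule takes whole, also holds carriers of taurine, creatine, GABA and monoamines.

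Replicates 1, 2 and 3 held 9328087, 9456501 and 9438894 rounded counts, so depth was nearly equal, and the 53 genes took 0.492%, 0.483% and 0.481% of them. Levels are in CPM, the usual depth-scaled counts, with TMM scaling, and 1 read in 1 library was worth about 0.106 CPM. A gene with no read in any library may reach up to 0.106 CPM (3 counts over the group, counting error only). Pigment cell markers were abundant (Tyrp1 at 12337 ± 399 CPM, Dct at 2713.0 ± 47.7 CPM). A value with ± gives the mean and SD over n = 3 libraries. Among markers of other cell types, 5 of 5 leukocyte, 4 of 5 neuronal and 3 of 4 fibroblast markers had no counts. Of the 5 kidney and gut epithelial markers none was without counts. Krt8, Krt18 and Lrp2 were above 1 CPM, Cdh1 was not told apart from 1 CPM, and Vil1 was below it with 2 reads. RNA was measured in bulk, so a low level in every cell and a higher level in few cells cannot be told apart.

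Of the 52 genes that are transporters, 26 were above 1 CPM, from Slc6a15 at 1.60 ± 0.326 CPM to Slc6a6 at 793 ± 22.8 CPM. Of the 53 genes, 43 had at least 1 count, and 27 of those exceeded 1 CPM, Slc7a6os among them (edgeR's quasi-likelihood test, Benjamini-Hochberg adjustment over all genes with a count). Another 12 were below 1 CPM, 4 were unresolved and 10 had no counts. DESeq2's Wald test kept 23 of the 27 above, without Slc38a3, Slc7a14, Slc7a9 and Slc6a15 (adjusted p = 0.112, 0.290, 0.704 and 0.721), and called none below. Over all 14408 genes with a count, 74.3% were above and 20.2% below 1 CPM, against 62.8% and 27.9% of the 43, so the share above was below that of the table. The median level was 1.60 CPM over the 53 genes and 12.6 CPM over the whole table. The 6 genes with the most reads, Slc6a6, Slc38a1, Slc38a2, Slc7a5, Slc3a2 and Slc7a1, held 68.5% of all reads of the families.

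**Figure D1:**
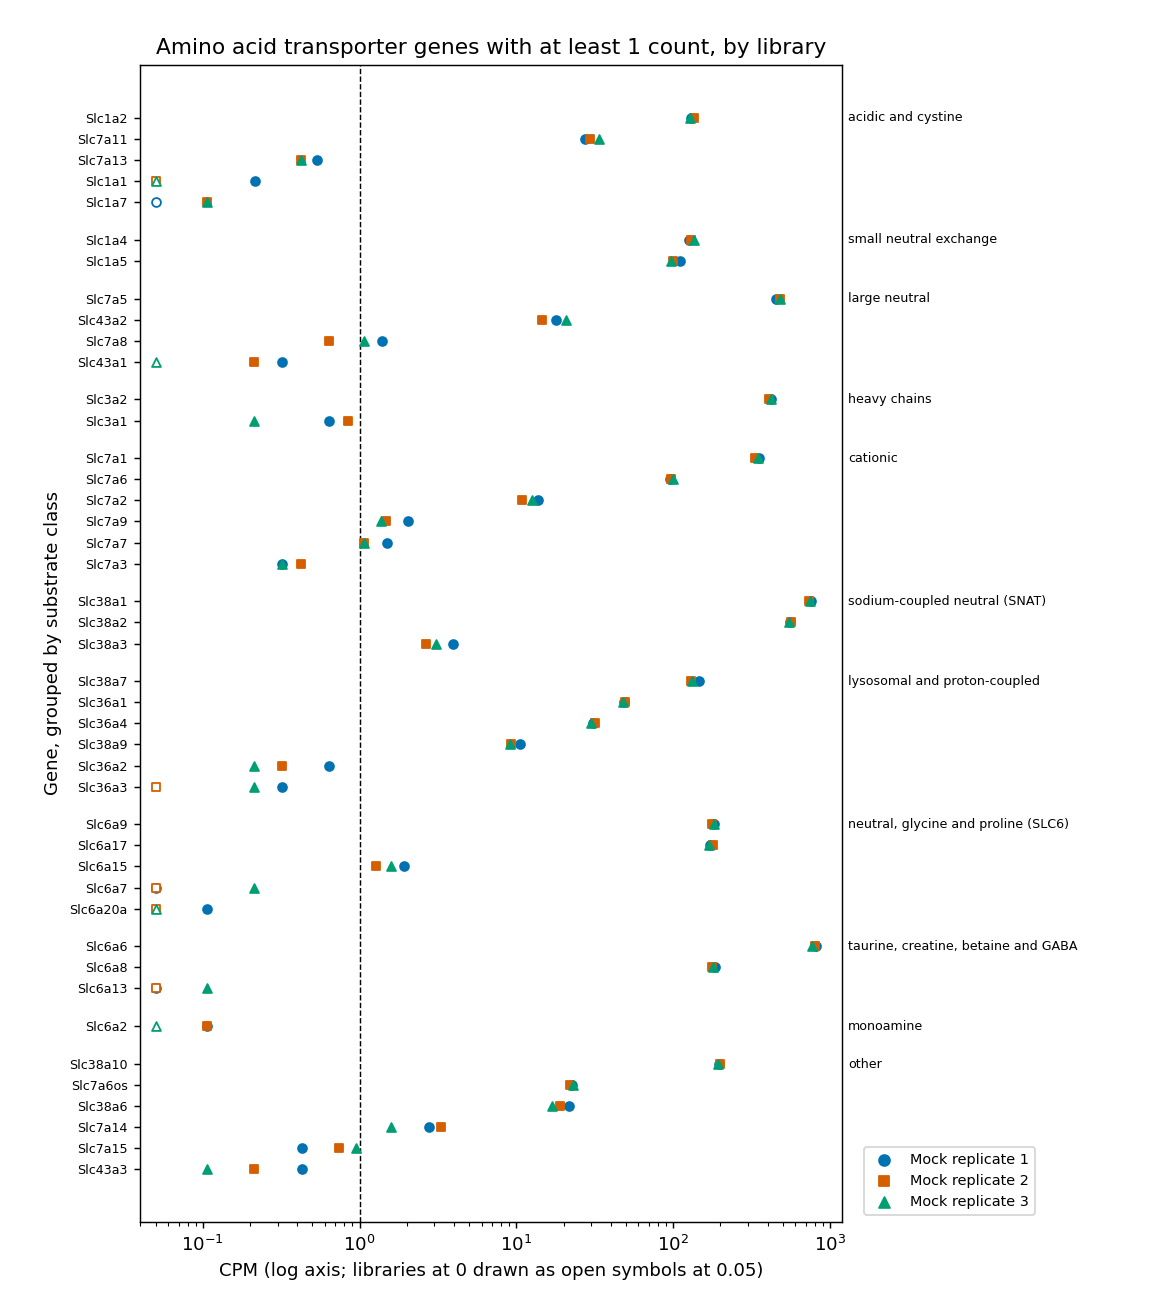
CPM on a log axis of the 43 genes with at least 1 count, grouped by substrate class, with 1 symbol per Mock replicate. The dashed line marks 1 CPM, and libraries without a read are open symbols at 0.05. The 3 libraries nearly coincide for Slc6a6, Slc38a1 and Slc7a5, and they scatter for genes with few reads such as Slc36a3 and Slc43a1.

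The heavy chain of the cell-surface exchangers was abundant and the renal one was not. Slc3a2 (chromosome 19, 8706882 to 8723369, minus strand, GRCm38) stood at 422, 409.7 and 419 CPM in replicates 1, 2 and 3. Slc3a1, whose protein carries cystine and dibasic amino acids with Slc7a9 in kidney and gut, had 6, 8 and 2 reads and was unresolved at 0.567 ± 0.324 CPM (edgeR adjusted p = 0.0822). Its exons overlap those of the opposite-strand gene Prepl (52.4 CPM) over 26.5% of their length, so its few reads cannot be assigned with certainty. Both heavy chain genes had fractional counts, which were rounded.

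Among carriers of large neutral amino acids, Slc7a5 predominated. Slc7a5 (LAT1, which brings leucine, phenylalanine and other large neutral amino acids into cells in exchange for internal ones; chromosome 8, 121881150 to 121907694, minus strand) stood at 453, 478 and 478 CPM. Slc43a2 (LAT4, a facilitative carrier of leucine, isoleucine, methionine and phenylalanine) stood at 17.9, 14.5 and 20.8 CPM, with the lowest library at replicate 2. Slc7a8 (LAT2), the paralog that also pairs with Slc3a2, had 13, 6 and 10 reads and was not told apart from 1 CPM (1.03 ± 0.378 CPM, edgeR adjusted p = 0.902). Slc43a1 (LAT3) had 3, 2 and 0 reads and was below 1 CPM (edgeR adjusted p = 0.00407), with no call without replicate 1 or 2 (0.0510 and 0.0532). Per kilobase of exon, Slc7a5 was at 127 ± 3.96 CPM and Slc7a8 at 0.205 ± 0.0754 CPM, so the gap between these paralogs far exceeded their spread.

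The level of each gene was set against Slc3a2 in the same library, per kilobase of merged exons. By limma on these log2 ratios, 1 of 42 genes of the families was higher than Slc3a2 and 41 were lower, while 2.49% of all 14096 genes tested were higher and 97.2% lower. The higher one was Slc7a5, whose log2 ratio was 0.10 ± 0.06, or 1.07-fold (limma adjusted p = 0.00244), and it was higher in 3 of 3 libraries. This call depended on the length used and on the libraries: with the longest transcript as length the ratio was -0.15, and without replicate 2 or 3 it was 0.07 and 0.09 with no call (limma adjusted p = 0.142 and 0.0580). Slc7a5 and Slc3a2 were thus close, and their order was not settled. The other light chains that pair with Slc3a2 and had counts lay far lower, at log2 ratios of -2.47 ± 0.03 for Slc7a6, -5.77 ± 0.16 for Slc7a11, -8.30 ± 0.26 for Slc7a7 and -9.16 ± 0.52 for Slc7a8. Summed over the 6 light chain genes known to pair with it (Slc7a10 had no counts), light chain reads per kilobase were 1.22, 1.32 and 1.29 times those of Slc3a2 in replicates 1, 2 and 3, or 1.28 ± 0.0502. The ratio was 1.10 ± 0.0430 over longest transcripts.

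Carriers of arginine and lysine were represented chiefly by Slc7a1. Slc7a1 (CAT1, the widespread arginine and lysine transporter; chromosome 5, 148327410 to 148399904, minus strand) stood at 355, 334 and 347 CPM. Slc7a6 (y+LAT2), which exchanges cationic for neutral amino acids, stood at 96.0, 96.9 and 99.3 CPM, the narrowest relative spread of this class (CV 1.72%). Slc7a2 (CAT2) stood at 13.7, 10.9 and 12.5 CPM, and it was below both in every library per kilobase. Slc7a9 (b0,+AT), the partner of the rBAT heavy chain, had 19, 14 and 13 reads, or 2.03, 1.48 and 1.38 CPM. It was above 1 CPM (edgeR adjusted p = 0.0174), although without replicate 1 or 2 it had no call (0.0857 and 0.0570). Slc7a7 (y+LAT1) was unresolved at 1.21 ± 0.251 CPM, and its exons overlap those of the opposite-strand gene Oxa1l (69.5 CPM). Slc7a3 (CAT3) was below 1 CPM with 10 reads in all (edgeR adjusted p = 0.00550).

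Sodium-coupled carriers of glutamine and small neutral amino acids took the largest share of reads, 26.8 ± 0.0385%, but 14.4 ± 0.110% once each gene was divided by its merged exon length. Slc38a1 (SNAT1; chromosome 15, 96571418 to 96642913, minus strand) stood at 757, 732 and 744 CPM. Slc38a2 (SNAT2, known to be induced when amino acids are scarce; chromosome 15, 96687392 to 96699730, minus strand) stood at 556, 567 and 545 CPM. These neighbours lie 44.5 kb apart on the same strand. Per kilobase of merged exons Slc38a2 was above Slc38a1, at 62.9 ± 1.24 and 43.2 ± 0.734 CPM, but with the longest transcript as length the order turned (90.8 and 102 CPM), because the merged exons of Slc38a1 (17236 bases) far exceed its longest transcript (7266 bases). Slc38a3 (SNAT3), a glutamine carrier prominent in liver and astrocytes, stood at 3.95, 2.65 and 3.08 CPM. Slc38a4 and Slc38a5 had no counts.

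**Figure D2:**
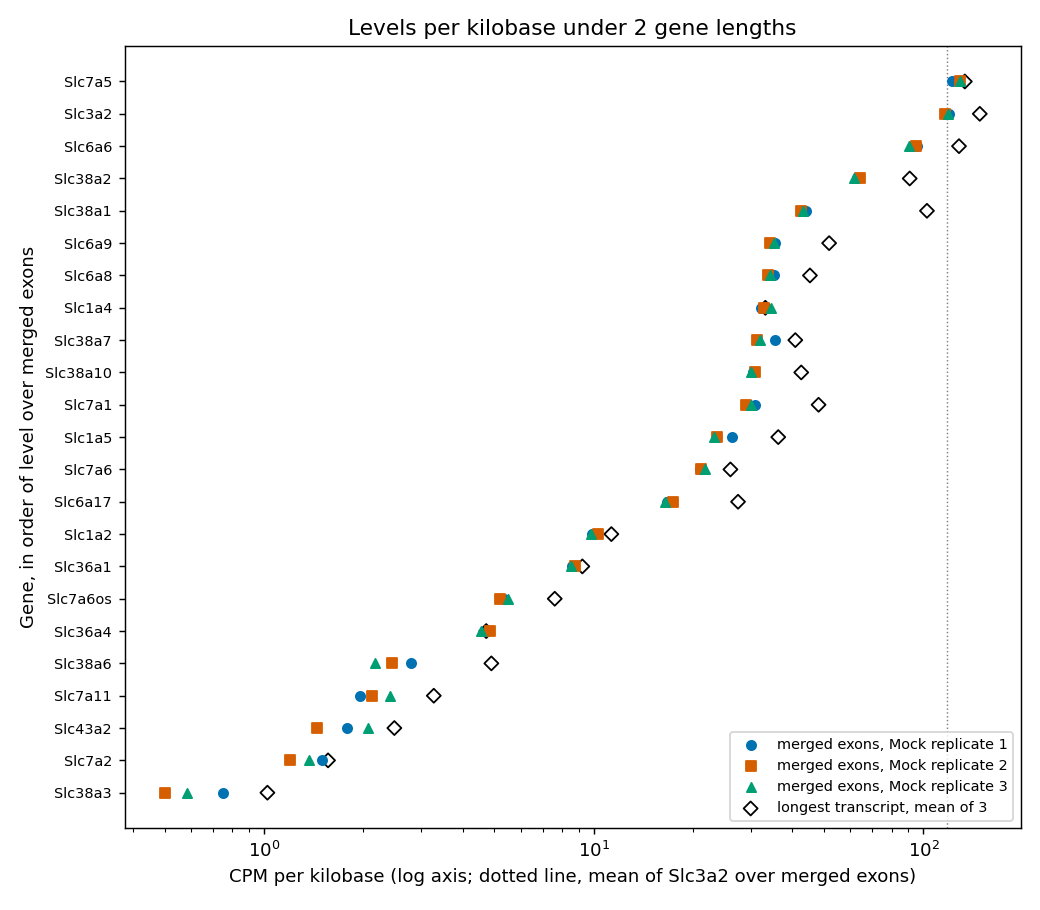
CPM per kilobase on a log axis for the 23 genes highest over merged exons, with 1 filled symbol per Mock replicate and an open diamond for the mean over the longest transcript. Slc7a5 and Slc3a2 lead under both lengths in opposite order, and the widest shift among the leading genes is that of Slc38a1, 43.2 against 102 CPM per kilobase.

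Both exchangers of small neutral amino acids in the Slc1 family were transcribed. Slc1a4 (ASCT1, which exchanges alanine, serine, cysteine and threonine) stood at 126, 129 and 135 CPM. Slc1a5 (ASCT2, which also takes glutamine) stood at 109.9, 99.0 and 96.5 CPM, and replicate 1 was the highest. Per kilobase of merged exons they were at 33.1 ± 1.13 and 24.4 ± 1.71 CPM, without overlap between libraries, but over longest transcripts the order turned (33.1 and 36.3 CPM). Slc7a10 had no counts.

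Among carriers of acidic amino acids and cystine, Slc1a2 and Slc7a11 were above 1 CPM and the other glutamate carriers were near the floor. Slc1a2 (EAAT2, the main glutamate transporter of astrocytes; chromosome 2, 102658659 to 102790784, plus strand) stood at 129, 135 and 129 CPM. Slc7a11 (xCT, which imports cystine in exchange for glutamate and whose loss reduces yellow pigment in mouse hair; chromosome 3, 49892526 to 50443614, minus strand) stood at 27.2, 29.7 and 33.6 CPM, with 10.7% CV. Slc1a1 (EAAT3) had 2 reads, both in replicate 1, Slc1a7 (EAAT5) had 2 reads, and Slc7a13 (AGT1, an aspartate and glutamate carrier of kidney) had 13, and all 3 were below 1 CPM (edgeR adjusted p between 7.24e-04 and 0.0145), Slc7a13 without a call when replicate 3 was left out (0.0574). Slc1a3 (EAAT1) had no counts. Among the glutamate carriers of the Slc1 family analysed here, which leave out Slc1a6, Slc1a2 was thus the one with more than a few reads.

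Promoters are shown for a few transporters above 1 CPM whose start regions hold letters bound by regulators of amino acid supply. ATF4, the transcription factor of the amino acid response, binds elements known as CARE with the letters TGATGNAA. Among the windows that RefSeq starts define (GRCm38.p6, from 250 bases before to 50 after the start), the letters were searched on both strands in all 32851 windows. They occurred in 4.51% of 27025 genes and in 3 of the 37 genes of the families with a window, Slc7a11, Slc1a4 and Slc7a7. Genes without a window, Slc7a5, Slc6a6 and Slc38a1 among them, were not searched for any of the letters named here. The Slc7a11 window (chr3:50443564-50443863, minus strand) held them at offsets -66 and -47 from the start, on opposite strands, and the Slc1a4 window (chr11:20332664-20332963, minus strand) at -4. Slc7a7, which was unresolved against 1 CPM and is not shown, held them at -141 and -1 from one start, and the second of these sites also lay at -243 from another start. Capitals mark the matches, which on the reverse strand read TTGCATCA.
Slc7a11: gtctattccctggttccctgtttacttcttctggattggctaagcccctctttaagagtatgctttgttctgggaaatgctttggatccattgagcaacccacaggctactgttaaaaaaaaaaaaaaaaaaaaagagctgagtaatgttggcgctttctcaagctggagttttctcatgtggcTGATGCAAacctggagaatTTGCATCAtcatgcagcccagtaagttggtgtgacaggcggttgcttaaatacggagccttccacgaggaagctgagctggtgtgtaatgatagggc
Slc1a4: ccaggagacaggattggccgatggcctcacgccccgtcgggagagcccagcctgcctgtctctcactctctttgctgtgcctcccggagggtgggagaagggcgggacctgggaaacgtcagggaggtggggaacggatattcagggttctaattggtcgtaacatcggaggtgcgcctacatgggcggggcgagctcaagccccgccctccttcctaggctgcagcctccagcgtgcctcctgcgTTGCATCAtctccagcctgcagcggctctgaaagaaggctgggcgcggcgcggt
Atf4 itself stood at 978 ± 15.7 CPM, and Asns, the asparagine synthetase gene and a known ATF4 target, at 964 ± 18.0 CPM. The matches are a description of these letters and no evidence of binding. The antioxidant response letters TGACNNNGC, known for the regulator encoded by Nfe2l2, occurred in 14.0% of all genes and in 7 of the 37, namely Slc36a1, Slc38a2, Slc43a1, Slc6a13, Slc6a9, Slc7a1 and Slc7a6.

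In the lysosomal and proton-coupled class, the 4 carriers known from lysosomal membranes were above 1 CPM. The proton-coupled carriers of kidney and testis in this class were below 1 CPM. Slc38a7 (SNAT7, which exports glutamine and asparagine from lysosomes) stood at 147, 129 and 132 CPM, highest in replicate 1. Slc36a1 (PAT1, a proton-coupled carrier of small neutral amino acids on lysosomes and at the cell surface) stood at 48.3, 49.4 and 48.2 CPM and had the lowest CV of the 27 genes, 1.40%. Slc36a4 (PAT4) stood at 31.0, 31.8 and 29.8 CPM. Slc38a9 (SNAT9), which senses lysosomal arginine for mTORC1, stood at 10.5, 9.22 and 9.12 CPM. Per kilobase of merged exons Slc38a7 was at 32.9 ± 2.27 CPM and Slc38a9 at 0.575 ± 0.0450 CPM, with no overlap between libraries. Slc36a2 (11 reads) and Slc36a3 (5 reads) were below 1 CPM (edgeR adjusted p = 0.0141 and 0.00407). Those calls were lost when a library was left out, for Slc36a2 without replicate 2 or 3 (0.0874 and 0.0886) and for Slc36a3 without replicate 1 or 3 (0.0510 and 0.0571). They lie beside Slc36a1 on chromosome 11, with 19.3 kb between Slc36a2 and Slc36a1.

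Windows of the lysosomal carriers Slc36a1 and Slc38a7 are shown because they hold the E-box letters CACGTG, which MITF and its relative TFEB, a regulator of lysosomal genes, are known to bind. The letters, which read the same on both strands, occurred in 8.09% of all genes and in 6 of the 37, Slc1a7, Slc36a1, Slc38a5, Slc38a7, Slc43a1 and Slc7a14. They stood at offsets -31 and -3 in Slc36a1 (chr11:55204090-55204389, plus strand) and at -34 in Slc38a7 (chr8:95853442-95853741, minus strand). Capitals mark them.
Slc36a1: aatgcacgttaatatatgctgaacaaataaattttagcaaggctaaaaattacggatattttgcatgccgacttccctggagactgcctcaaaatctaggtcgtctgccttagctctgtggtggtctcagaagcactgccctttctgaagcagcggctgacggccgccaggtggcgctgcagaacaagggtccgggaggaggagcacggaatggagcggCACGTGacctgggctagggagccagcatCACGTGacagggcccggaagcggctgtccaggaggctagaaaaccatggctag
Slc38a7: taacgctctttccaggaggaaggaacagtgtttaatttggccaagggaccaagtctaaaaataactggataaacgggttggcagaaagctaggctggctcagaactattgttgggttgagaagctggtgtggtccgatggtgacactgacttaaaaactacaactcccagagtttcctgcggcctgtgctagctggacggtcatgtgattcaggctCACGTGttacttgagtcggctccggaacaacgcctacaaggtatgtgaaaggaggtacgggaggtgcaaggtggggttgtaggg
The second Slc36a1 match overlaps the antioxidant letters that begin at offset 2. Of the 6 genes, Slc36a1, Slc38a7 and Slc7a14 were above 1 CPM, Slc1a7 and Slc43a1 were below it, and Slc38a5 had no counts.

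Carriers of glycine and vesicular neutral amino acids were abundant among the Slc6 genes, and those of kidney and gut had few or no reads. Slc6a9 (GlyT1, a glycine transporter) stood at 183, 176 and 181 CPM, although 27.8% of its exon length overlaps the opposite-strand gene Ccdc24 (4.50 CPM). Slc6a17 (NTT4, known from synaptic vesicles of neurons; chromosome 3, 107467543 to 107518018, minus strand) stood at 172, 178 and 169 CPM, while the neuronal genes Snap25, Syt1, Stmn2 and Gad1 had no counts and Slc17a7 had 2 reads. Slc6a15 (B0AT2, a carrier of branched-chain amino acids and proline) was just above 1 CPM at 1.92, 1.27 and 1.59 CPM (edgeR adjusted p = 0.0217) and had no call without replicate 1 or 3 (0.0889 and 0.0905). Slc6a7 (PROT, a proline carrier) had 2 reads and Slc6a20a (SIT1) 1 read, both below 1 CPM, Slc6a7 without a call when replicate 1 was left out (0.0510). Slc6a18 and Slc6a19, which serve neutral amino acid uptake in kidney and gut and lie 1.72 kb apart, had no counts. Cltrn, the partner that Slc6a19 needs in kidney, had none either.

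Taurine and creatine carriers held 20.0 ± 0.354% of the reads of the families and 17.2 ± 0.319% per kilobase of merged exons. Slc6a6 (TauT, the taurine transporter; chromosome 6, 91684053 to 91759066, plus strand) had the most reads of all, 809.5, 802 and 767 CPM, and followed Slc7a5 and Slc3a2 per kilobase under both lengths. Slc6a8 (the creatine transporter; chromosome X, 73673150 to 73682502, plus strand) stood at 184, 176 and 178 CPM. Slc6a13 (GAT2, a GABA carrier) had 1 read and Slc6a12 (BGT1, for betaine and GABA) none. Of the monoamine carriers, Slc6a2 (for noradrenaline) had 2 reads and was below 1 CPM, and Slc6a4 (for serotonin) had no counts.

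**Figure D3:**
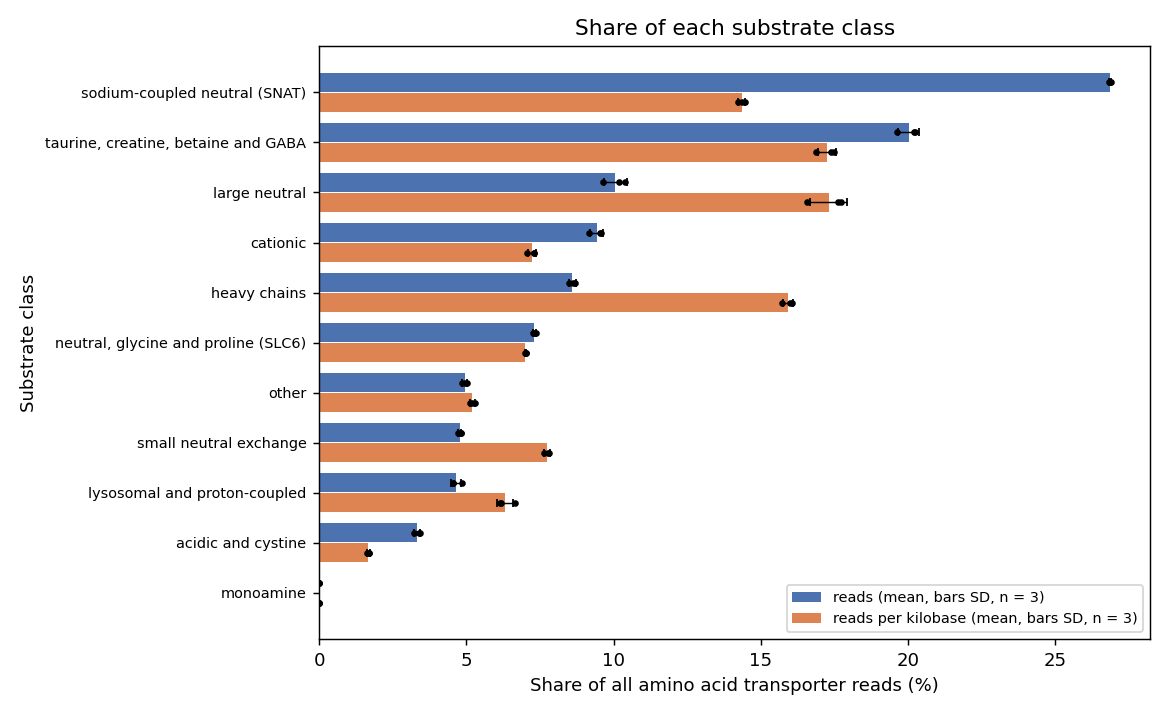
Share of all reads of the families (%) by substrate class, as reads and as reads per kilobase of merged exons. Bars are means, error bars SD and points the 3 Mock replicates. The sodium-coupled class leads by reads at 26.8% but not per kilobase of merged exons, where large neutral carriers reach 17.3% and taurine and creatine carriers 17.2%. Class shares over longest transcripts were not computed. Over that length Slc38a1 of the sodium-coupled class rises from 43.2 to 102 CPM per kilobase, and Slc38a2 from 62.9 to 90.8, so the class order may differ.

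Genes classed as other or of less settled substrate included 1 abundant member. Slc38a10 stood at 195, 198 and 192 CPM. Slc38a6 stood at 21.8, 19.0 and 16.9 CPM, and Slc7a14, a gene of retina and brain, at 2.78, 3.29 and 1.59 CPM. The call of Slc7a14 above 1 CPM (edgeR adjusted p = 6.30e-04) was lost without replicate 1 (0.0687), and both genes had fractional counts. Slc7a15 was unresolved with 20 reads, Slc43a3 was below 1 CPM with 7 reads, and Slc7a4 and Slc38a8 had no counts. Slc7a6os, which is no transporter, stood at 22.5, 21.9 and 23.1 CPM.

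Per kilobase of merged exons the order was led by Slc7a5, Slc3a2, Slc6a6 (93.8 ± 2.70 CPM), Slc38a2 and Slc38a1, and each of these stood apart from the next in all libraries. Below them Slc6a9, Slc6a8, Slc1a4 and Slc38a7, between 35.0 and 32.9 CPM, overlapped from neighbour to neighbour. Slc38a10 and Slc7a1 overlapped as well. Among the 26 neighbouring pairs of the 27 genes above 1 CPM, which include Slc7a6os, libraries overlapped in 10 and stood apart in 16. The same 5 genes led over longest transcripts, in the order Slc3a2, Slc7a5, Slc6a6, Slc38a1 and Slc38a2.

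No gene of the families was called as varying between libraries beyond counting error. Of 28 genes averaging 10 counts or more, 0 were called by the Poisson deviance test with adjustment over all 11000 genes tested, where 3.31% were called. At an unadjusted p under 0.05 there were 7 of the 28, and 1642 of the 11000. The lowest adjusted p was that of Slc6a6 (0.0561), whose log2 range was only 0.08. With library totals in place of TMM factors, Slc6a6 and Slc38a7 were called (adjusted p = 0.0339 and 0.0436), and without replicate 2 Slc6a6 was called (0.0458). The widest log2 range was 1.05, for Slc7a14. Of the 28 genes, 15 were highest in replicate 1, 8 in replicate 2 and 5 in replicate 3. The matching shares over all genes tested were not computed, so these counts are no result about the families. The epithelial markers Krt8 (9.94, 1.38 and 3.82 CPM) and Krt18 (6.52, 0.636 and 2.76 CPM) were highest in replicate 1. The other epithelial markers did not share this pattern: Lrp2 was highest in replicate 3 (1.39, 1.17 and 2.12 CPM). Cdh1 was nearly equal in replicates 1 and 2 (1.39, 1.27 and 0.848 CPM), and Vil1 had 2 reads. Summed over 5 epithelial markers the levels were 19.3, 4.56 and 9.55 CPM, and their part in the transporter values was not tested.

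**Figure D4:**
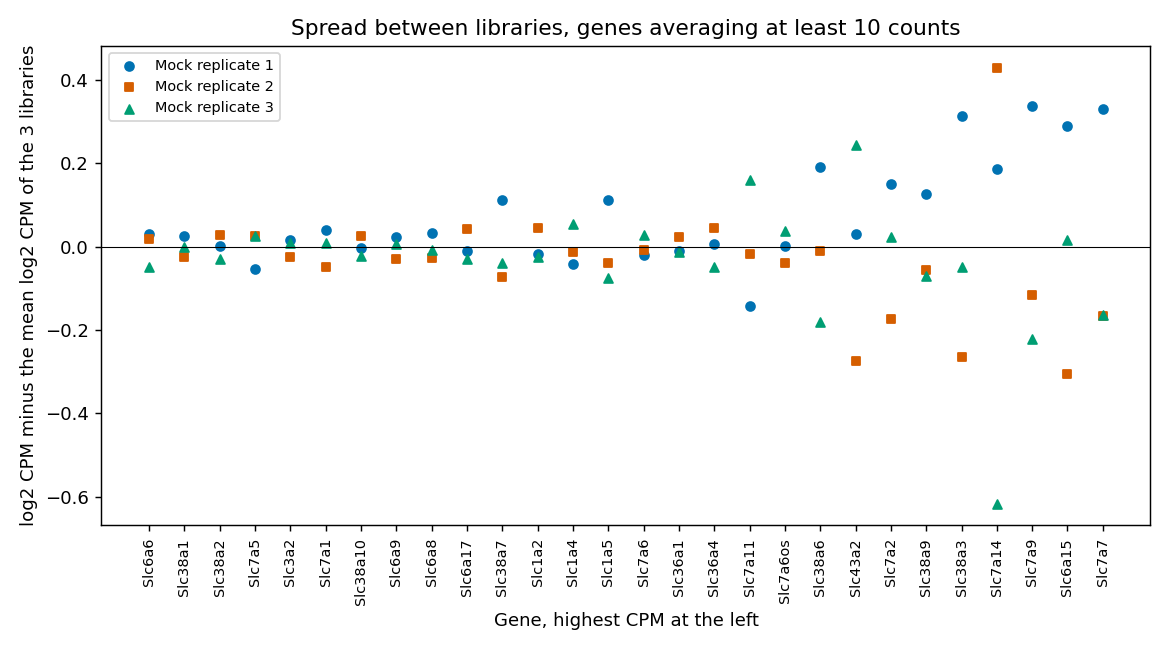
Deviation of log2 CPM in each library from the mean log2 CPM of the 3 libraries, for the 28 genes averaging at least 10 counts, highest level at the left. Points lie near 0 for abundant genes and fan out to the right, to a log2 range of 1.05 for Slc7a14.

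Genes that work with these transporters are read against the table, in which 74.3% of the genes with a count were above 1 CPM. The list totals also hold genes without counts, 1 among the enzymes and regulators and 1 among the partners and further carriers. Of 16 genes of lysosomal amino acid sensing, 15 were above 1 CPM, led by the Rag GTPase gene Rragc at 253 ± 13.8 CPM, the Ragulator gene Lamtor1 at 133 ± 0.860 CPM, Rragd at 130.2 ± 1.74 CPM and the leucine sensor gene Sesn2 at 123 ± 2.23 CPM. The arginine sensor gene Castor1 was below 1 CPM with 3 reads, while its paralog Castor2 was above it with 78 reads (2.76 ± 0.224 CPM). Of 15 amino acid enzymes and regulators, 12 were above, led by Atf4 and Asns, then Glul (glutamine synthetase) at 216 ± 2.24 CPM and Got1 at 177 ± 2.41 CPM. Arg2 (1 read) and Bcat1 (7 reads) were below, and Arg1 had no counts. Of 11 partners and further carriers, 7 were above, led by the lysosomal cystine exporter gene Ctns at 73.1 ± 2.94 CPM, and the mitochondrial carriers Slc25a13 at 55.5 ± 1.34 CPM, Slc25a22 at 50.2 ± 1.80 CPM and Slc25a12 at 40.6 ± 1.72 CPM. Slc16a10, an aromatic amino acid carrier, was below with 2 reads, as was Slc15a3 with 3 reads. The median level was 51.7 CPM for the sensing list, 113 CPM for the enzymes and regulators and 28.0 CPM for the partners and carriers, against 12.6 CPM over the table.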

How the data were processed

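RNA was sequenced from 3 Mock samples of B16 cells, extracted with a NucleoSpin RNA kit, with libraries made by the provider BGI, per the labels' protocols. The authors' deposited table holds unnormalized estimated counts by gene symbol, with a column for each sample. Per the submitters' processing notes, the build was GRCm38.p6. The sources used here do not give the aligner, counter, annotation or strand, so reads of overlapping opposite-strand genes cannot be told apart. In 2270 of 17285 rows (13.1%) at least 1 value was fractional (over 0.005 from whole), among them Slc3a2, Slc3a1, Slc7a7, Slc7a11, Slc7a14, Slc36a1, Slc36a2 and Slc38a6. Counts were rounded. Bare numbers name 11 rows, which were kept in totals and tests.

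The members, classes and lists were chosen with earlier results of these data known. All members are accounted for. Transporters above 1 CPM have every library's value, and from each of the 3 lists of partners, sensing genes and enzymes the 4 highest and those with no count are named. Others, such as the scarce genes of those lists, the genes sharing exons with a member and the markers, were named after their values were seen. Some genes of the classes and lists were not analysed here, such as Slc1a6, Slc7a12, Slc6a3, Slc6a5, Slc6a11, Slc6a14, Slc6a16, Slc6a20b, Slc38a11, Slc66a1 and Epcam.

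The test of levels against 1 CPM used R 4.3.3 and edgeR 4.0.16 and took a two-sided quasi-likelihood statistic from a fit with an intercept alone, with the Poisson bound and Benjamini-Hochberg adjustment over 14408 genes. TMM factors were 1.0034, 0.9977 and 0.9989. At this depth 1 CPM corresponds to 28.2 reads over the 3 libraries. Ratios to Slc3a2 used counts plus 0.5 and limma 3.58.1 with a mean-variance trend. Exon lengths and positions are from GENCODE M21 (GRCm38) by symbol, with all exons of a gene merged. Variation between libraries was tested where the mean reached 10 counts, by the Poisson deviance against a chi-square with 2 degrees of freedom. The tests were checked on counts simulated from negative binomial models, or from a Poisson model for variation. Such a check cannot show how well the tests hold for these data. Alternatives were DESeq2 1.42.0, other scalings, filters, thresholds, lengths and pseudocounts, and each replicate left out. Plots used matplotlib 3.10.9.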

Additional observations from a re-analysis of the deposited data

How the results depend on the processing

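No paired analysis was possible because the samples form a single group. The count of genes above 1 CPM lay between 23 and 29 under all alternatives run. The count below 1 CPM, 12, rests on few reads: it was 3 among genes with at least 10 counts, where most low genes are not tested, 0 with DESeq2's Wald test (also 0 of the whole table, adjusted or at an unadjusted p under 0.05), 6 against 0.5 CPM, 16 against 2 CPM, and 7 to 10 with each replicate left out. Genes near the thresholds changed side. Against 0.5 CPM the log2 distance was 0.18 for Slc3a1 and 0.50 for Slc7a15, and against 2 CPM it was -0.96 for Slc7a8, -0.73 for Slc7a7, -0.30 for Slc7a9 and -0.33 for Slc6a15, as the moved threshold requires. For Slc7a8 it ran from -0.24 without replicate 1 to 0.29 without replicate 2. Genes higher than Slc3a2 numbered 0 over longest transcripts (Slc7a5 at -0.15), 4 for reads without a length term (Slc6a6 at 0.93, Slc38a1 at 0.84 and Slc38a2 at 0.41 besides Slc7a5), and 0 to 1 with each replicate left out. Genes varying between libraries numbered 2 with library totals and 0 to 1 with each replicate left out. The cause of the last change was not tested. Class shares per kilobase were added after seeing the data, over merged exons only. Exon length limits every comparison between genes, since the transcripts these cells use were not measured.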
